A study of Mus musculus with 13 samples.

Results

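Complex I, the NADH:ubiquinone oxidoreductase of the mitochondrial inner membrane, was followed through every gene whose symbol starts with Nduf in a table of injured mouse muscle. The choice by name gave 47 of 14911 genes. Of these, 36 encode structural subunits, 8 are assembly factors named Ndufaf, and 3 are other rows (Ndufa4, Ndufa4l2 and Ndufb4b). Ndufab1 was counted as structural because its protein, the mitochondrial acyl carrier protein, is built into the complex. Ndufb1 and the subunits encoded by mitochondrial DNA were not analysed here.

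Complex I takes electrons from NADH at the tip of an arm that reaches into the matrix, passes them along iron-sulfur clusters to ubiquinone, and pumps protons through an arm in the membrane. Its N module holds the NADH site, its Q module the ubiquinone site, and its membrane arm the pumps. Core subunits carry out the chemistry, supernumerary subunits surround and stabilise them, and assembly factors help to build the complex without staying in it. Muscle fibres are rich in mitochondria and use complex I in sustained work.

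The muscle was whole hamstring of female C57BL/6 mice, sampled on day 4 after intramuscular cardiotoxin at 0.32 mg/kg, a venom toxin that destroys fibres. All mice of both groups carried this injury. The saline group (n = 4) received daily intraperitoneal saline, and the dexamethasone group (n = 9) received the synthetic glucocorticoid dexamethasone at 10 mg/kg by the same route, with 1 library per mouse. The submitters kept only saline mice in which no bone had formed, whereas bone had formed in every dexamethasone mouse, so drug and bone formation cannot be told apart here. Libraries held 25531487 to 34942266 reads recovered from the deposited values. The labels used here give no age.

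Complex I genes were lower in dexamethasone muscle almost throughout. Of the 36 structural subunits, 35 fell and 0 rose at a limma adjusted p under 0.05 (adjusted over all genes by Benjamini-Hochberg), beside 22.9% of all genes lower and 25.2% higher. Called genes in either direction were 48.1% of the table. Of the 8 assembly factors, 7 fell and 0 rose, and Ndufaf4 did not pass. The median log2 fold change was -0.47 over the structural subunits, 1.39-fold lower, and -0.37 over the assembly factors, 1.29-fold lower. The median over all genes was 0.01, and over the 8903 genes with a mean level within the range of the structural subunits it was 0.02. In 34 of 36 structural subunits and 4 of 8 assembly factors every dexamethasone library lay below every saline library, which 12.9% of all genes did.

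The falls were moderate in size. Log2 fold changes of the 35 structural subunits that fell ran from -0.80 to -0.28 and those of assembly factors from -0.51 to -0.03, so the ranges overlapped. The largest fall of a subunit, that of Ndufb10, ranked 650 among all genes ordered by fall. In bulk muscle, fewer cells of a type and less RNA per cell cannot be told apart. With CPM over summed reads in place of effective library sizes, the median of all genes moved up by 0.12 on the log2 scale, and the 7173 called genes, 3413 lower and 3760 higher, became 2001 lower and 5256 higher. Under that scaling 34 structural subunits and 4 assembly factors fell and 0 of either class rose.

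**Figure D1:**
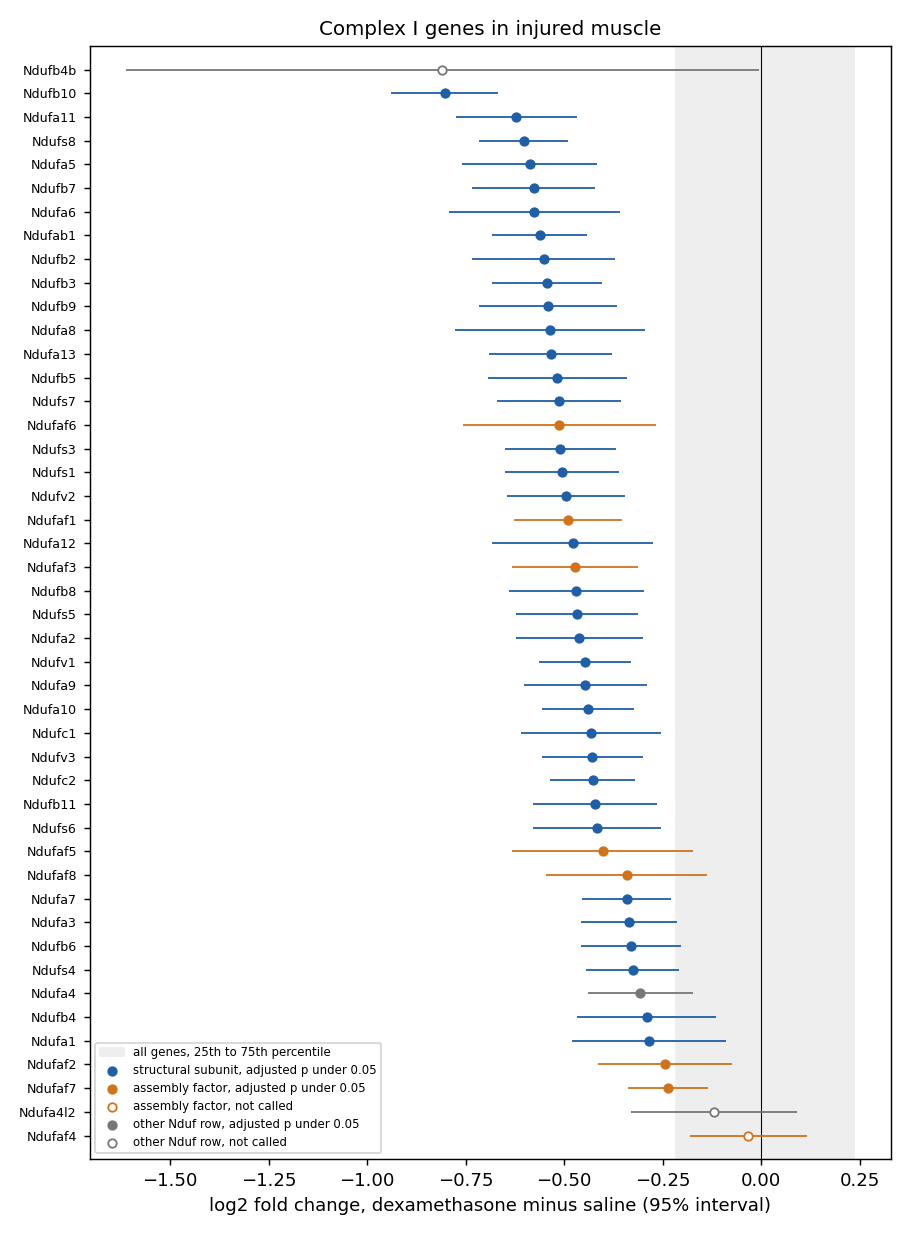
Log2 fold change, dexamethasone minus saline, of complex I genes with 95% intervals from the limma fit; filled points passed an adjusted p of 0.05 and the grey band spans the 25th to 75th percentile of all 14911 genes. All 43 filled points lie left of 0, and the open points are Ndufaf4, Ndufa4l2 and Ndufb4b.

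The core subunits in the matrix arm bind the flavin, the iron-sulfur clusters and ubiquinone. Of the 7 encoded in the nucleus, 6 fell, with a median of -0.51. Ndufv1 holds the flavin that accepts electrons from NADH. Its level was 8.08 ± 0.08 log2 CPM (read counts scaled to sequencing depth, on a log2 scale) in saline mice and 7.63 ± 0.09 in dexamethasone mice (SD, n = 4 and 9). The groups did not overlap, and the difference was -0.45 ± 0.06 (SE; limma adjusted p = 1.19e-05). Its partner Ndufv2, a small iron-sulfur protein, differed by -0.49 ± 0.07 (SE), with means of 8.05 and 7.56 log2 CPM. Ndufs1, the large iron-sulfur subunit of the N module, was at 8.32, 8.13, 8.05 and 8.01 log2 CPM in saline mice 1, 2, 3 and 5, the order kept below, and at 7.42 to 7.75 in dexamethasone, with a median of 7.65. It differed by -0.51 ± 0.07 (SE; limma adjusted p = 2.66e-05), again with no overlap.

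In the Q module, Ndufs8 and Ndufs7 carry the last clusters before ubiquinone. Ndufs8 lay at 7.01, 6.98, 6.88 and 7.03 log2 CPM in saline and between 6.22 and 6.46, with a median of 6.37, in dexamethasone. It fell by 0.60 ± 0.05 on the log2 scale (SE; limma adjusted p = 5.92e-07), 1.52-fold lower and with every dexamethasone library below the saline ones. Ndufs7 and Ndufs3, a scaffold of the same module, each had a log2 fold change of -0.51 ± 0.07 (SE). Ndufs3 has a processed pseudogene, Gm12251, with 98.6% identity over the aligned bases, so reads shared with it are uncertain.

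**Figure D2:**
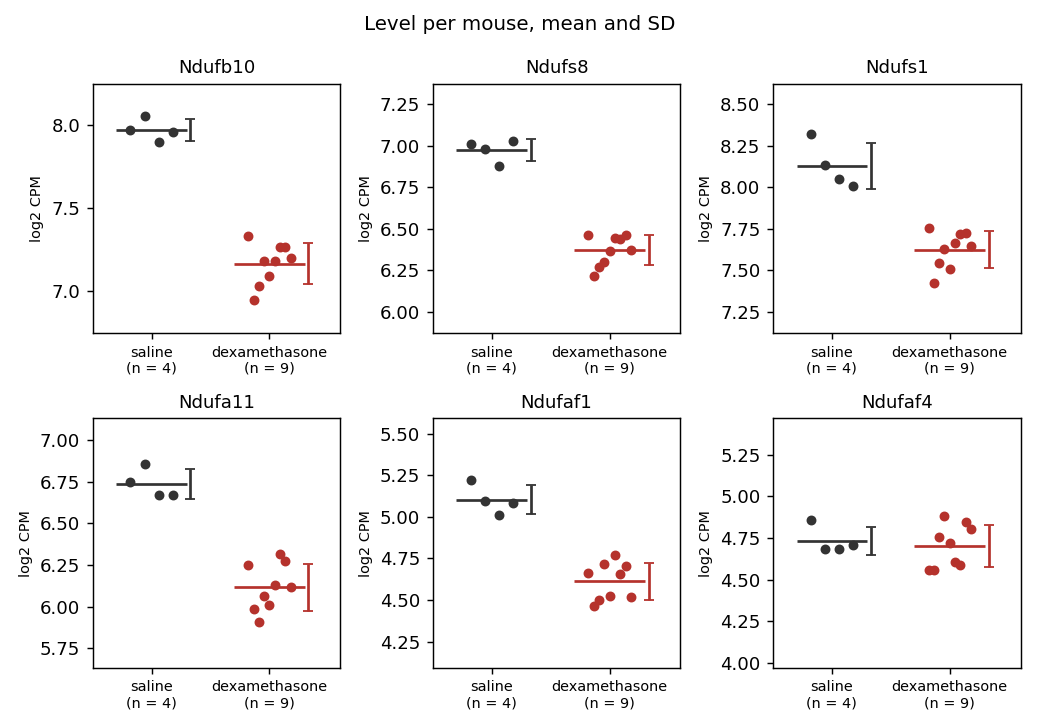
Log2 CPM per mouse for 6 complex I genes, with the group mean as a line and the SD as a bar (saline n = 4, dexamethasone n = 9; every panel spans the same height on the log2 scale). Ndufb10, Ndufs8, Ndufs1, Ndufa11 and Ndufaf1 separate the groups in every mouse, whereas values of Ndufaf4 overlap.

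All 29 supernumerary subunits fell, with a median log2 fold change of -0.47. Ndufb10, a disulfide-bonded protein on the intermembrane side of the membrane arm, had the largest fall. It was at 7.97, 8.05, 7.89 and 7.96 log2 CPM in saline and at 6.95 to 7.33, with a median of 7.18, in dexamethasone. The lowest saline library therefore exceeded the highest dexamethasone library by more than the spread within either group. The difference was -0.80 ± 0.06 (SE; limma adjusted p = 2.5e-07), 1.74-fold lower. Relative to the structural mean of the same library, Ndufb10 went from 1.00 to 1.13 above it in saline to 0.70 to 0.79 above it in dexamethasone on the log2 scale.

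The next largest falls of supernumerary subunits were spread over the complex. Ndufa11, a membrane protein of the proximal arm, went from 6.75, 6.86, 6.67 and 6.67 log2 CPM in saline to 5.90 to 6.32 in dexamethasone, with a median of 6.12 and a difference of -0.62 ± 0.07 (SE; limma adjusted p = 6.87e-06). Ndufa5 of the Q module differed by -0.59 ± 0.08, Ndufb7 of the distal membrane arm by -0.58 ± 0.07, and Ndufa6 by -0.58 ± 0.10 (SE). Ndufa6 anchors the acyl carrier protein Ndufab1 to the complex, and Ndufab1 itself differed by -0.56 ± 0.06 (SE).

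Among structural subunits, Ndufa1, Ndufb4 and Ndufs4 showed the smallest falls that passed. Ndufs4, an N module subunit whose loss in mice gives a model of Leigh syndrome, differed by -0.33 ± 0.06 (SE) with no overlap. Ndufb4, of the distal membrane arm, differed by -0.29 ± 0.08 (SE; limma adjusted p = 0.00926). Ndufa1, a small membrane subunit, lay at 5.85, 5.91, 5.72 and 5.59 log2 CPM in saline and at 5.23 to 5.79 in dexamethasone, with a median of 5.45, and 7 of 9 dexamethasone libraries were below all saline ones. Its difference of -0.28 ± 0.09 (SE; limma adjusted p = 0.0185) lost its call without saline mouse 1 (adjusted p = 0.0556), without saline mouse 2 (adjusted p = 0.0757) and over summed reads (adjusted p = 0.0796). Over all alternatives its adjusted p ran from 0.00391 to 0.685.

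By place in the complex, 10 of 10 N module genes fell with a median of -0.45, and 5 of 6 Q module genes with a median of -0.51. In the proximal membrane arm 9 of 9 fell with a median of -0.44, and in the distal membrane arm 11 of 11 with a median of -0.54. The mean level of the distal arm was 7.07 ± 0.08 log2 CPM in saline and 6.56 ± 0.14 in dexamethasone, and that of the N module 6.71 ± 0.06 and 6.26 ± 0.12 (SD, n = 4 and 9). Differences between the modules were not tested. The 47 genes are spread over 17 chromosomes, and called members were found on each of the 17.

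**Figure D3:**
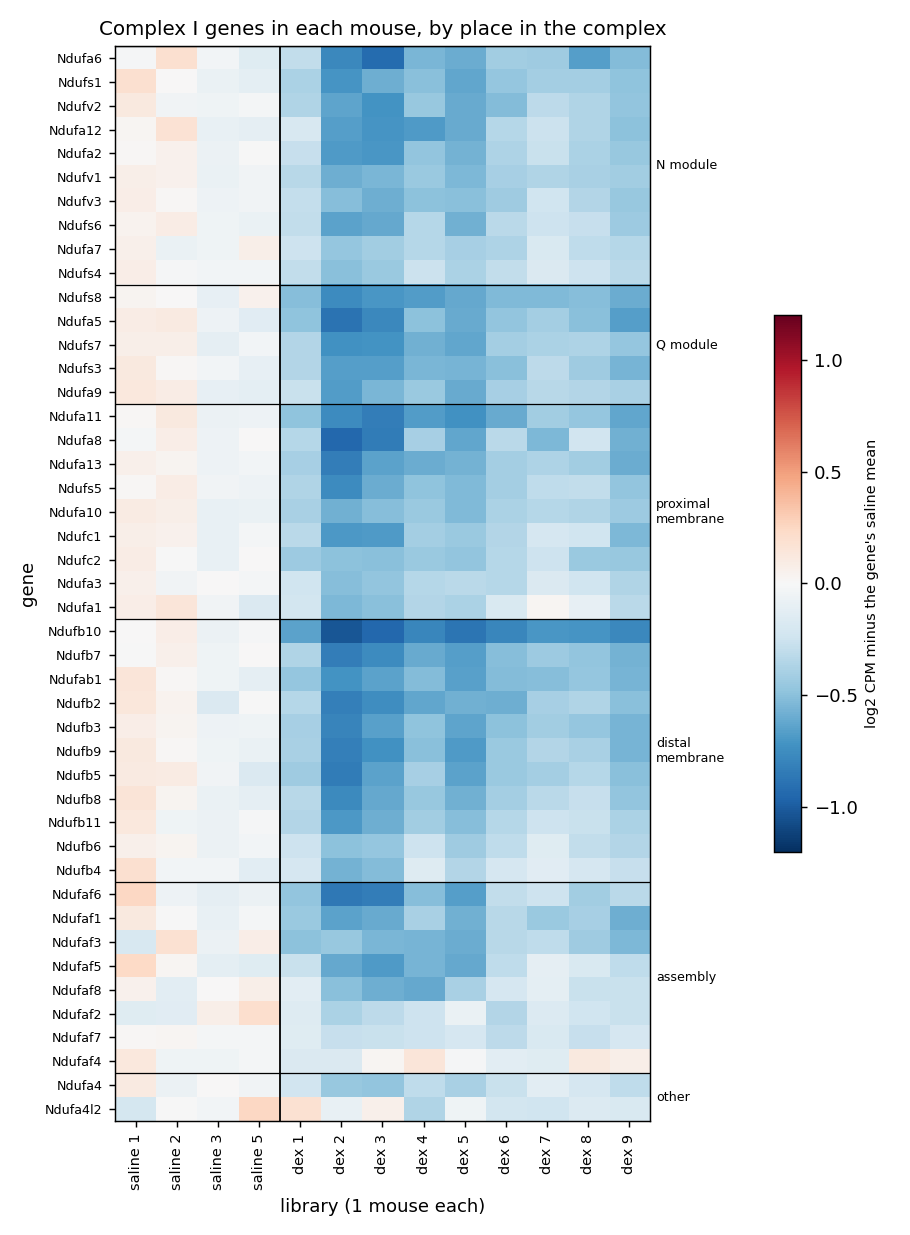
Log2 CPM of each gene in each mouse minus that gene's saline mean, ordered by place in the complex; Ndufb4b, with few reads, is among those left out. The 9 dexamethasone columns are mostly blue in every module, darkest in mice 2 and 3. The row of Ndufaf4 stays pale, and Ndufa4l2 also has dexamethasone values on both sides of its saline mean.

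Mice differed within each group across most subunits at once. The structural mean was 6.89 ± 0.07 log2 CPM in saline, from 6.82 to 6.97, and 6.42 ± 0.13 in dexamethasone, from 6.20 to 6.57 (SD, n = 4 and 9). Dexamethasone mouse 2 was the lowest of its group for 29 of 36 subunits, and dexamethasone mouse 7 the highest for 19. Among saline mice, mouse 1 was the highest for 23 subunits. These ranks hold for the deposited scaling. Relative to summed reads, the effective library size was lowest in saline mouse 1 (0.88), which raises its values. Among dexamethasone mice it was highest in mouse 2 (1.10), which lowers its values, and lowest in mouse 7 (0.99). Ranks over summed reads were not examined.

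The assembly factors were scarcer transcripts than the subunits they help to join. Per kilobase of transcript, the median saline level was 14.0 CPM for assembly factors, from 7.32 for Ndufaf4 to 23.7 for Ndufaf1, and 136 CPM for structural subunits, from 17.9 for Ndufb2 to 410 for Ndufb9. The low ends rest on long principal transcripts, of 3632 bases for Ndufaf4 and 4371 for Ndufb2. Before division by length, Ndufb2 was at 6.29 log2 CPM in saline and Ndufa6 at 3.91. The assembly factor mean was 4.25 ± 0.04 log2 CPM in saline and 3.91 ± 0.10 in dexamethasone (SD, n = 4 and 9). The structural mean exceeded it by 2.57 to 2.70 on the log2 scale in saline libraries and by 2.44 to 2.57 in dexamethasone libraries, where dexamethasone mouse 1 lay just above saline mouse 5. The difference between the class medians was -0.10, and it ran from -0.13 to -0.06 as each library was left out. It was not tested, and it is smaller than the range within either class.

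Ndufaf1 joins the machinery that builds the membrane arm. It was at 5.22, 5.10, 5.01 and 5.08 log2 CPM in saline and at 4.46 to 4.77, with a median of 4.66, in dexamethasone. With no overlap, it differed by -0.49 ± 0.06 (SE; limma adjusted p = 2.06e-05). Ndufaf6, which acts on the Q module, differed by -0.51 ± 0.12 (SE), with saline at 3.83 ± 0.17 and dexamethasone at 3.32 ± 0.23 log2 CPM (SD). Ndufaf5, which hydroxylates Ndufs7, differed by -0.40 ± 0.11, and its partner Ndufaf8 by -0.34 ± 0.10 (SE). Ndufaf7, a protein methyltransferase, had the tightest values of the class. It was at 4.33, 4.34, 4.30 and 4.29 log2 CPM in saline and at 4.00 to 4.17 in dexamethasone, with a median of 4.06 and a difference of -0.24 ± 0.05 (SE; limma adjusted p = 0.00084).

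Ndufaf3 and Ndufaf4 work as a pair on the Q module. Ndufaf3 was at 3.93, 4.31, 4.06 and 4.20 log2 CPM in saline and at 3.53 to 3.82, with a median of 3.63, in dexamethasone. It fell by 0.47 ± 0.08 on the log2 scale (SE; limma adjusted p = 0.000121). Ndufaf4 was at 4.86, 4.68, 4.68 and 4.71 log2 CPM in saline and at 4.56 to 4.88, with a median of 4.72, in dexamethasone, so the saline range lay within the dexamethasone range, and 4 of 9 dexamethasone libraries were below every saline library. Its difference was -0.03 ± 0.07 (SE; 95% interval -0.18 to 0.12; limma adjusted p = 0.732), and 0 of 26 alternatives called it. The difference was negative in 23 of the 26, and over summed reads it was 0.08. Whether the pair differed from each other was not tested.

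Calls of 3 assembly factors depended on scaling or on single mice. Over summed reads, Ndufaf2, Ndufaf7 and Ndufaf8 did not pass (limma adjusted p = 0.271, 0.0788 and 0.0585). Ndufaf2, which acts in the late addition of the N module, differed by -0.24 ± 0.08 (SE; limma adjusted p = 0.02). It lost its call without saline mouse 3 (adjusted p = 0.0643) or saline mouse 5 (adjusted p = 0.0891), and its adjusted p ran from 0.00811 to 0.271 over all alternatives. A noncoding RNA on the opposite strand covers 65.6% of the exonic bases of Ndufaf2, so its reads are uncertain unless strand was used in counting. In all, 17 of the 47 genes overlap an exon on the opposite strand, including 39.0% of Ndufb6 and 30.0% of Ndufa13. On the same strand 3 genes overlap another: 19.5% of Ndufb9, 4.3% of Ndufb8 and 2.6% of Ndufb2. Ndufb11 has a processed pseudogene, Gm6444, with 96.9% identity over the aligned bases. Reads shared in these places are uncertain as well.

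Other factors of complex I assembly, not named Ndufaf, were lower in part. Of the 12 measured, 9 fell and 0 rose, with a median of -0.21. Of those in the same machinery as Ndufaf1, Ecsit (-0.45 ± 0.07) and Timmdc1 (-0.26 ± 0.06) fell. Acad9 of that machinery was at -0.15 ± 0.06 (SE; limma adjusted p = 0.0415), a call lost without saline mouse 1 or 2 among other alternatives. Tmem126b was at 0.005 ± 0.06 and did not pass (limma adjusted p = 0.956). Foxred1, an oxidoreductase-like factor, differed by -0.42 ± 0.06 and Tmem242 by -0.40 ± 0.06 (SE). Over summed reads 4 of the 12 fell. Coa1 was not analysed here.

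The 3 Nduf rows outside these classes are not part of complex I or are copies. Ndufa4, now counted as a subunit of cytochrome c oxidase, was at 7.95 ± 0.08 log2 CPM in saline and 7.64 ± 0.12 in dexamethasone (SD). It fell by 0.31 ± 0.06 on the log2 scale (SE; limma adjusted p = 0.000927). Its relative Ndufa4l2, a hypoxia-inducible gene, was at 3.24 to 3.70 log2 CPM in saline and at 3.09 to 3.64 in dexamethasone and did not pass (-0.12 ± 0.10, SE; limma adjusted p = 0.343). Ndufb4b, a copy of Ndufb4, had 5 to 45 reads per library and a difference of -0.81 ± 0.38 (SE; limma adjusted p = 0.0892). Without saline mouse 5 it passed, at -1.10 (adjusted p = 0.0336, in a range of 0.0336 to 0.533 over all alternatives). It carries the Ensembl identifier of Ndufb4 in the deposited table, and reads shared between such copies are uncertain.

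In the authors' deposited table of their own comparison, 43 of the 47 genes had an adjusted p below 0.05. The call was the same as here for all 47.

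Promoters were examined because genes on 17 chromosomes moved together. Windows from 250 bases before to 50 after the annotated start were taken from RefSeq on GRCm38.p6, the assembly behind mm10. They were found for 32 of the structural subunits and 7 of the assembly factors, and for 11746 of the tested genes. Motifs were searched on both strands as exact letters. The NRF1 motif GCGCNTGCG, recognised by nuclear respiratory factor 1, was in 9 of 32 structural and 2 of 7 assembly factor windows, against 13.7% of tested genes. YY1 letters AAGATGGC were in 7 of 32 and 1 of 7, against 4.7%, and ERR letters AAGGTCA in 3 of 32 and 0 of 7, against 4.0%. ETS letters CCGGAAG were in 4 of 32 and 2 of 7, against 17.9%. SP1 letters GGGCGG were in 15 of 32 and 6 of 7, against 65.4%, and CCAAT in 10 of 32 and 4 of 7, against 42.2%. Structural subunits with the NRF1 letters had a median log2 fold change of -0.54 and those without them -0.45. For YY1 the order was the opposite, with -0.43 for those holding the letters and -0.51 for those without. The same pair of medians was -0.54 and -0.47 for ETS, -0.47 and -0.48 for ERR, -0.48 and -0.47 for SP1, and -0.48 and -0.47 for CCAAT, all descriptions with no test.

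The 200 bases upstream of the annotated start of 3 genes are shown 5′ to 3′ on the gene's strand. They were chosen because the same motif stands before the structural subunit with the largest fall, one with a small fall and an assembly factor with no call. Capitals mark the NRF1 letters on either strand and, in Ndufb4, also the ERR letters. The windows are Ndufb10 at chr17:24724424-24724623 on the minus strand, Ndufb4 at chr16:37654369-37654568 on the minus strand, and Ndufaf4 at chr4:24897883-24898082 on the plus strand.
Ndufb10: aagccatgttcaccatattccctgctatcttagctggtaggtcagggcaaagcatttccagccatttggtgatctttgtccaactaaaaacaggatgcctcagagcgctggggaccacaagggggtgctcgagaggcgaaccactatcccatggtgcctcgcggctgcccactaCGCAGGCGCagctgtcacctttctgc
Ndufb4: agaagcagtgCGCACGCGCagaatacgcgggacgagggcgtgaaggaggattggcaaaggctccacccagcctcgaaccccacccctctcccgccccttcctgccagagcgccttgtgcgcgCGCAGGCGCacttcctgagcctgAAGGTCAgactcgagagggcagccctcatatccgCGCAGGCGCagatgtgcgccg
Ndufaf4: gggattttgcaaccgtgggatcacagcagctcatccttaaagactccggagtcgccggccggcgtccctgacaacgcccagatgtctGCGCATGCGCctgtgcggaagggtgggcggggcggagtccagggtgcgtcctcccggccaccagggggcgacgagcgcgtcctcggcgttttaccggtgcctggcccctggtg

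Ndufb10 (log2 fold change -0.80) holds the NRF1 letters at 1 place near the start. Ndufb4 (-0.29) holds them at 3 places, the most in any member, beside the ERR letters. Ndufaf4 (-0.03) holds 2 overlapping matches in 1 run. A match of letters is a description and not a bound site.

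Among regulators of mitochondrial gene expression, 6 of 16 fell and 2 rose, with a median of -0.06. Over all genes 22.9% fell and 25.2% rose. Ppargc1a, the coactivator PGC-1alpha, was at 4.99 ± 0.29 log2 CPM in saline and 3.98 ± 0.20 in dexamethasone (SD, n = 4 and 9), a difference of -1.01 ± 0.12 (SE; limma adjusted p = 8.82e-06). Esrra, the nuclear receptor that binds the ERR motif, fell by 0.50 ± 0.06 and Tfb1m, a mitochondrial rRNA methyltransferase, by 0.69 ± 0.09 on the log2 scale (SE). Pprc1, a relative of Ppargc1a, rose by 0.65 ± 0.08 (SE; limma adjusted p = 1.82e-05). Nrf1, which binds the NRF1 motif, differed by 0.14 ± 0.05 (SE; limma adjusted p = 0.0375), and its call was lost under several alternatives, median centring and quantile normalisation among them. Over summed reads, 5 of the 16 fell and 6 rose, a setting in which 2001 of all 14911 genes fell and 5256 rose.

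Genes that feed electrons into or past complex I were also mostly lower. Of 14 subunits of NADH-producing enzymes of pyruvate oxidation and the citric acid cycle, 13 fell and 0 rose, with a median of -0.41. Dlat of the pyruvate dehydrogenase complex differed by -0.57 ± 0.05, Pdhb by -0.50 ± 0.05, Dlst of the oxoglutarate dehydrogenase complex by -0.42 ± 0.05 and malate dehydrogenase Mdh2 by -0.51 ± 0.07 (SE). Of 11 genes for enzymes that reduce ubiquinone outside complex I, 8 fell and 0 rose, with a median of -0.31. Sdhb of complex II differed by -0.63 ± 0.07, Sdhc by -0.49 ± 0.06, and the electron transfer flavoproteins Etfb and Etfa by -0.46 ± 0.06 and -0.31 ± 0.06 (SE).

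Of 11 genes of ubiquinone synthesis, 8 fell and 0 rose, with a median of -0.31, led by Coq7 (-0.57 ± 0.07), Coq5 (-0.53 ± 0.07), Coq6 (-0.41 ± 0.06) and Coq9 (-0.48 ± 0.09; SE). Over summed reads 6 fell and 2 rose. Of 17 genes for general mitochondrial proteins such as import receptors, porins and prohibitins, 13 fell and 1 rose, with a median of -0.30. Timm44 differed by -0.46 ± 0.06, Vdac2 by -0.31 ± 0.05, Phb by -0.38 ± 0.06 and Tomm22 by -0.23 ± 0.04 (SE). Slc25a5, an adenine nucleotide carrier, was the one that rose, by 0.23 ± 0.08 (SE; limma adjusted p = 0.0188), and its call was lost without saline mouse 1, 2 or 3. Over summed reads 9 of the 17 fell and 3 rose. Differences between these lists and complex I were not tested.

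**Figure D4:**
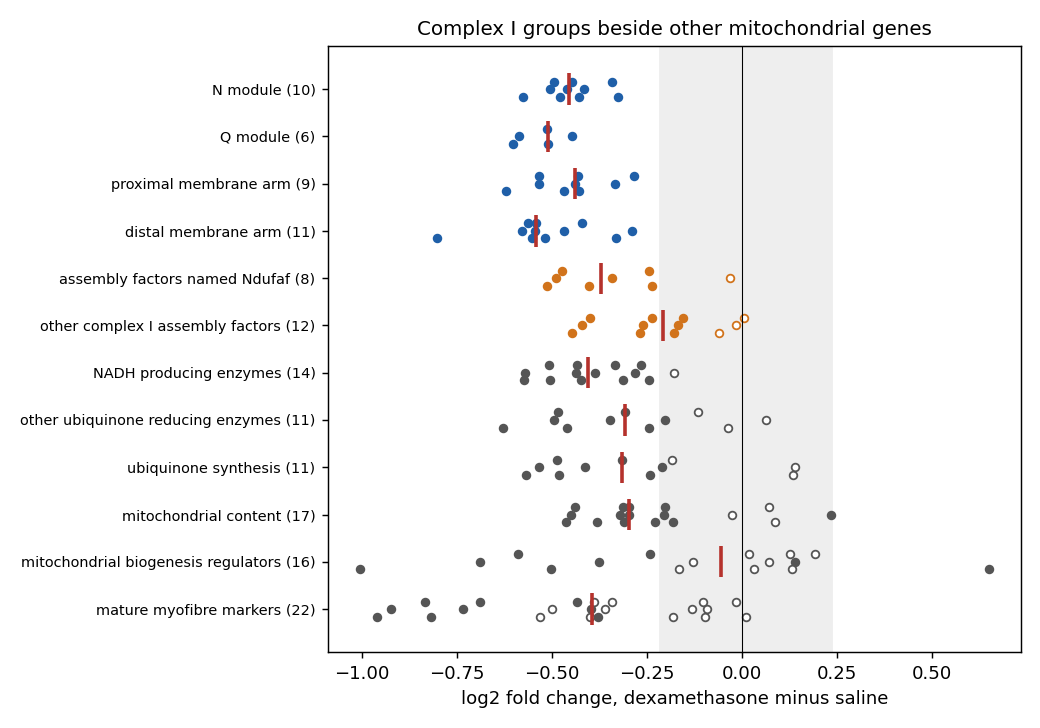
Log2 fold change, dexamethasone minus saline, of the genes of each list (number of genes in brackets); filled points passed an adjusted p of 0.05, red bars are list medians (over all genes of a list; 1 Q module point is not drawn), and the grey band spans the 25th to 75th percentile of all genes. The 4 groups of structural subunits have medians from -0.54 to -0.44, and the biogenesis regulators spread from -1.01 to 0.65.

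Markers of mature muscle fibres were lower in part. Of 22 markers 9 fell, 0 rose and 13 did not pass, with a median of -0.39, among them Casq1 (-0.96 ± 0.13), Eno3 (-0.92 ± 0.13), Tnnt1 (-0.69 ± 0.10) and Myl1 (-0.83 ± 0.14; SE). Their counts depended on the setting. With quantile normalisation, 7 fell and 3 rose and their median was -0.06, while that of the structural subunits was -0.49. That setting gives every library the same distribution of values, which limits differences among very abundant genes such as these markers. Over summed reads 11 fell and 0 rose, with a median of -0.28, beside -0.36 for the structural subunits. With voom 13 fell and 0 rose, with a median of -0.40, beside -0.47. Summed, the 22 markers took 164600 to 246300 CPM in saline libraries and 114200 to 167500 CPM in dexamethasone libraries. Their mean in log2 CPM was 11.96 to 12.44 in saline and 11.45 to 11.92 in dexamethasone.

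Saline mouse 5, with the lowest fibre mean of its group, had a fibre mean of 11.96 and a structural mean of 6.83 log2 CPM. Dexamethasone mice 1, 7 and 8, with the highest fibre means of theirs, had fibre means of 11.91, 11.92 and 11.88 and structural means of 6.54, 6.57 and 6.53 log2 CPM. These are values of single mice with no test. With the fibre mean as a covariate, 18 of 36 structural subunits were called lower and 0 higher, with a median of -0.22, and 2 of 8 assembly factors (Ndufaf1 and Ndufaf3) were called lower, with a median of -0.14. In that fit 10.5% of all genes were lower, and 3274 genes passed in all. Ndufb10 was at -0.60 and Ndufs8 at -0.46 there, and over all alternatives their limma adjusted p was at most 0.00017 and 0.000359. Because the fibre mean was lower in every dexamethasone library than in any saline library, the covariate overlaps with the groups.

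**Figure D5:**
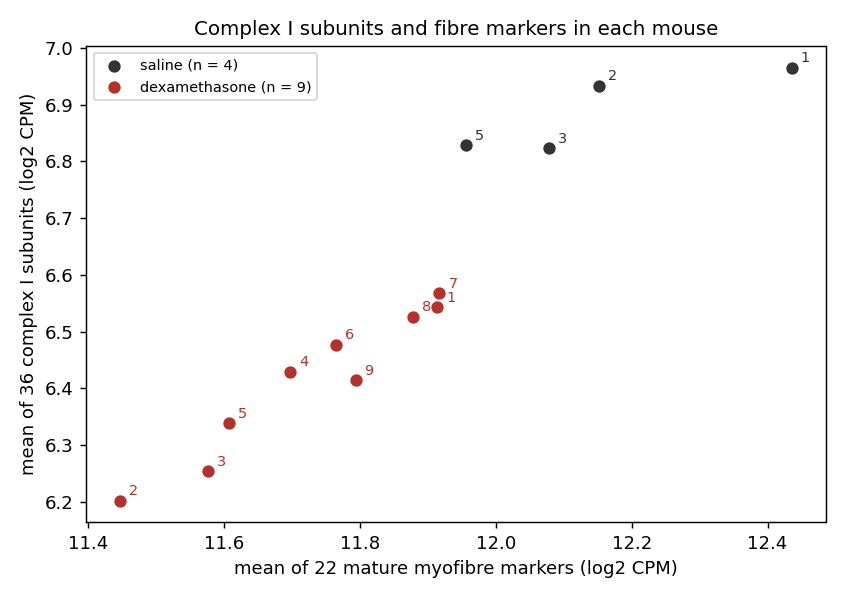
Mean of 36 structural subunits against the mean of 22 mature fibre markers in each of 13 libraries, both in log2 CPM, with mouse numbers. Dexamethasone mice 1, 7 and 8 lie close to saline mouse 5 along the fibre axis, with structural means of 6.53 to 6.57 and of 6.83.

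Markers of other cells in injured muscle differed from list to list, beside 22.9% of all genes lower and 25.2% higher. All 10 lymphocyte markers fell, with summed levels of 39.2 to 56.4 CPM in saline and 5.11 to 15.0 CPM in dexamethasone, led by Cd79b (-2.33 ± 0.24), Lck (-2.18 ± 0.25), Cd4 (-2.39 ± 0.30) and Cd3d (-2.91 ± 0.42; SE). Of 11 macrophage markers 4 rose and 1 fell, at 2124 to 3114 and 2540 to 3375 CPM, with Mrc1 at 1.32 ± 0.11 and Csf1r, the one that fell, at -0.18 ± 0.07 (SE). The call of Csf1r was lost in most alternatives, quantile normalisation and CPM over summed reads among them. Of 11 markers of regenerating fibres 4 fell and 3 rose, with a median of -0.01. Their summed levels, which weigh abundant markers most, were 9705 to 11060 CPM in saline and 3683 to 5810 CPM in dexamethasone. Actc1 was at -2.46 ± 0.19 and Myl4 at -0.56 ± 0.12 (SE). Those that rose were Ncam1 (0.52 ± 0.12), Chrna1 (0.36 ± 0.10) and Mymx (0.55 ± 0.18; SE). Without saline mouse 2, 4 fell and 1 rose, and without saline mouse 5, 3 fell and 5 rose.

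Of 6 adipocyte markers 4 rose and 0 fell, at 434.6 to 723.8 and 556.1 to 1192 CPM, led by Lep at 1.43 ± 0.21 (SE), and Ucp1 was not analysed here. Without saline mouse 3 or saline mouse 5, 2 of them rose, and with the fibre covariate 1 rose. Of 7 neutrophil markers 2 fell and 1, Mmp8, rose (30.4 to 243.2 and 31.1 to 53.2 CPM). These counts rested on single saline mice: without saline mouse 3, 0 fell and 3 rose, and without saline mouse 5, 0 fell and 0 rose. Without saline mouse 1 or 2, 2 fell and 0 rose, and the call of Mmp8 was lost in most alternatives. Of 8 fibroblast markers 2 fell, led by Lum (-0.89 ± 0.08), and 1, Gsn, rose (10940 to 14840 and 10990 to 14970 CPM), and of 7 endothelial markers 1 fell and 0 rose (300.3 to 350.9 and 290.8 to 337.3 CPM). In the fibroblast list 2 rose without saline mouse 2 or dexamethasone mouse 1 or 9, and in the endothelial list 3 fell without dexamethasone mouse 4, 2 fell and 1 rose without saline mouse 2, and 1 rose without saline mouse 1. In the neutrophil, fibroblast and endothelial lists 28.6%, 25% and 14.3% of markers were lower, near or below the 22.9% of all genes. The part of these cells in the complex I differences was not tested.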

How the data were processed

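Polyadenylated RNA of whole muscle from 13 mice was made into stranded libraries, per the labels' protocols. The submitters' processing notes name featureCounts 2.0.1, a read counter, limma 3.50.1 and the build mm10. Not given in the sources used here are the aligner, the strand setting and any low-gene filter. Deposited were log2 CPM values of each mouse for 14911 genes and, from the authors' own comparison, log2 fold changes, p-values, and t and B scores, and these scores were not used. The deposited log2 values gave back whole reads (within 0.01) in 100% of values when read as log2 of CPM, with 0.5 added to the reads and the library size replaced by an effective one. Another table, of 14970 genes, includes the excluded saline mouse, and its 1 column of values for that mouse was not used.

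Groups came from the labels. The groups were compared in limma 3.58.1 (R 4.3.3) by a two-sided moderated test with an intensity trend, and p was adjusted over all genes (Benjamini-Hochberg, 0.05). Fold changes are the dexamethasone mean minus the saline mean of log2 CPM, and the offset of 0.5 reads shrinks them in low genes. Depth was 25531487 to 32537345 reads in saline and 28021111 to 34942266 in dexamethasone libraries. Pairs of libraries within a group differed by a chi-square per gene of at least 7.21, so each counted as 1 sample. The fit was checked on simulated data.

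The members and lists were chosen with earlier results of these data known. Named genes were all assembly factors, the nuclear core subunits, the 6 largest falls and 4 smallest changes of structural subunits, every member outside these classes or not called, and up to 4 genes of smallest adjusted p per list plus those called against their list's majority. Ndufab1, Ndufb6, Ndufa13, Ndufb2, Ndufb8, Ndufb9, Ndufb11, Acad9 and Tmem126b are named besides, after their values were seen. A gene that the rule picked is not reported here. Positions came from RefSeq and GENCODE tables of the same build, lengths from the principal transcript. Near copies were searched with blastn 2.17.0, and figures drawn with matplotlib 3.10.9. Alternatives were other scalings, a low-gene filter, other moderation, voom, a fibre covariate, the mouse number as a block, and libraries left out.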

Additional observations from a re-analysis of the deposited data

Results flagged for a closer look

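Among 98 groups of values tested, 3 held a library far from the rest of its group, and chance flags about 1 in 20 groups. In each, saline mouse 1 was the high one. Ndufaf4 was at 4.86 log2 CPM in that mouse, with the nearest saline library at 4.71. Ndufaf6 was at 4.08 log2 CPM there, with the nearest at 3.77. Ndufv2 was at 8.17 log2 CPM there, with the nearest at 8.03. Saline mouse 1 also had the highest mean of fibre markers, 12.44 log2 CPM. Its effective library size relative to summed reads was the lowest of all libraries (0.88), which raises all its values. The flags were not examined over summed reads.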

How the results depend on the processing

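Over all settings and the 47 genes, 1184 single values kept their side of the threshold. Of the others, 31 kept the direction and lost their call, 3 gained one and 3 lost theirs with a change of sign. Sign changes of members not called in the main fit count among the 1184. Ndufaf4 was negative in 23 of 26 settings and Ndufa4l2 in 24. The 3 called members that changed sign did so with the fibre mean as covariate: Ndufa1 (0.058), Ndufaf5 (0.044) and Ndufb4 (0.035). That covariate also left 3274 genes of all, 18 structural subunits and 2 assembly factors called, with class medians of -0.22 and -0.14; it overlaps with the groups. CPM over summed reads left 4 assembly factors called, with a median of -0.26. The mouse number as a replicate block, over the 8 libraries that share numbers, gave a median of -0.46 for assembly factors; so did those 8 libraries without the block, an alternative chosen after seeing the data. Correlations of deviations between mice of the same number (1, 2, 3 and 5) were -0.01, -0.07, -0.03 and 0.12. Saline mouse 5 correlated best with its own number, and saline mice 1, 2 and 3 did not. So few values cannot settle whether numbers pair the mice. With each library left out in turn, all genes called ran from 6306 to 7173, structural subunits from 34 to 35, assembly factors from 6 to 7, and their medians from -0.50 to -0.44 and from -0.40 to -0.32. The cause of these changes was not tested. Fewest reads stood behind Ndufb4b, 5 to 45 per library, and other members had 221 to 15855.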
